A study of Equus asinus with 3 samples.

Results

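The collagen genes of the donkey (Equus asinus) were followed across the cells of testis, epididymis caput and epididymis corpus. The members were all features whose name is COL, digits, A and digits in each of the 3 libraries. This gave 43 genes of the 34267 features named over the series. The same 43 were listed in testis (of 32159 features), caput (of 33722) and corpus (of 32140). By the structure their chains build, 11 are fibrillar, 6 form the basement membrane network, 5 form beaded filaments and 10 are fibril associated. A further 3 form short chain networks, 4 are transmembrane, 2 are multiplexins and 2 (COL26A1, COL28A1) are others. The gene for the anchoring fibril collagen, COL7A1, carried a locus number in these files, so the name rule did not take it.

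The study took testis and epididymis from 3 sexually mature male donkeys to follow spermatogenesis and sperm maturation. Tissue was kept in a storage solution, digested with collagenase IV and DNase I, strained and made into droplet libraries on the DNBelab C platform. Each tissue is 1 library, and how the animals were divided among the libraries is not given. The testis library is labelled germ cells and both epididymis libraries somatic cells, and no sort, treatment or genotype is described. With 1 library a tissue there is no replicate, so no test between tissues was possible. Every interval below is a 95% interval for counting error only.

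Collagens are trimeric proteins wound from chains with repeating glycine. Fibrillar types I, III and V make the tension-bearing fibres of connective tissue, and fibril associated types such as XII and XIV sit on their surface. Type IV builds the sheet of the basement membrane under epithelium and around the seminiferous tubule, type VI makes beaded filaments next to cells, and types XV and XVIII are proteoglycans of basement membrane zones. In testis and epididymis the fibroblasts and peritubular cells are known as the main makers of the fibrillar types.

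Kept cells numbered 8510 in testis, 9478 in caput and 9607 in corpus, with median depths of 4676, 1145 and 371 UMIs (unique molecule counts). Clusters were made without collagen genes and named from markers that include none. Fibroblast-like cells, named from 18 stromal markers such as DCN, LUM and PDGFRA, numbered 157 in testis, 717 in caput and 2912 in corpus. These markers summed to 5328 CPM in testis, 28942 CPM in caput and 52615 CPM in corpus. DCN alone gave most of the sum in caput and in corpus. In testis 15 of the 18 had UMIs, LUM with few, and FBLN2, SFRP2 and MFAP4 were at 0. Germ-like cells were 92.8% of the testis library. No cluster was named as smooth muscle, pericyte, basal epithelium, Sertoli or Leydig cells, nor, at the resolution used, as endothelium. Barcodes led by very long genes (4331 in caput, 4874 in corpus, 143 in testis) had no marker identity and are treated as a class of their own. Doublet calling marked 100 testis cells, 0 caput cells and 2 corpus cells, and it had therefore not worked for the epididymis. All counts of a class were summed and are given as CPM, the UMIs of a gene scaled to 1e+06 UMIs of the class.

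All 43 members had at least 1 UMI in every library, and 34 in testis, 39 in caput and 35 in corpus reached 50 UMIs. COL10A1 (33 UMIs over the 3 libraries), a hypertrophic cartilage collagen, and COL9A2 (49 UMIs), a chain of cartilage type IX, stayed under 50 in total. Collagen transcripts made up 0.0242% of all UMIs in testis (0.0237 to 0.0246), 0.354% in caput (0.351 to 0.357) and 0.795% in corpus (0.786 to 0.803). The mix differed as well. COL1A1, COL1A2 and COL3A1, which encode types I and III, supplied 12.8% of collagen UMIs in testis, 39.4% in caput and 58.8% in corpus. The member with the most testis UMIs was COL27A1 (1624 UMIs), a fibrillar collagen of developing cartilage, ahead of COL3A1 (951), COL24A1 (891) and COL4A4 (820). In caput and corpus it was COL1A2, with 7459 and 8545 UMIs.

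**Figure D1:**
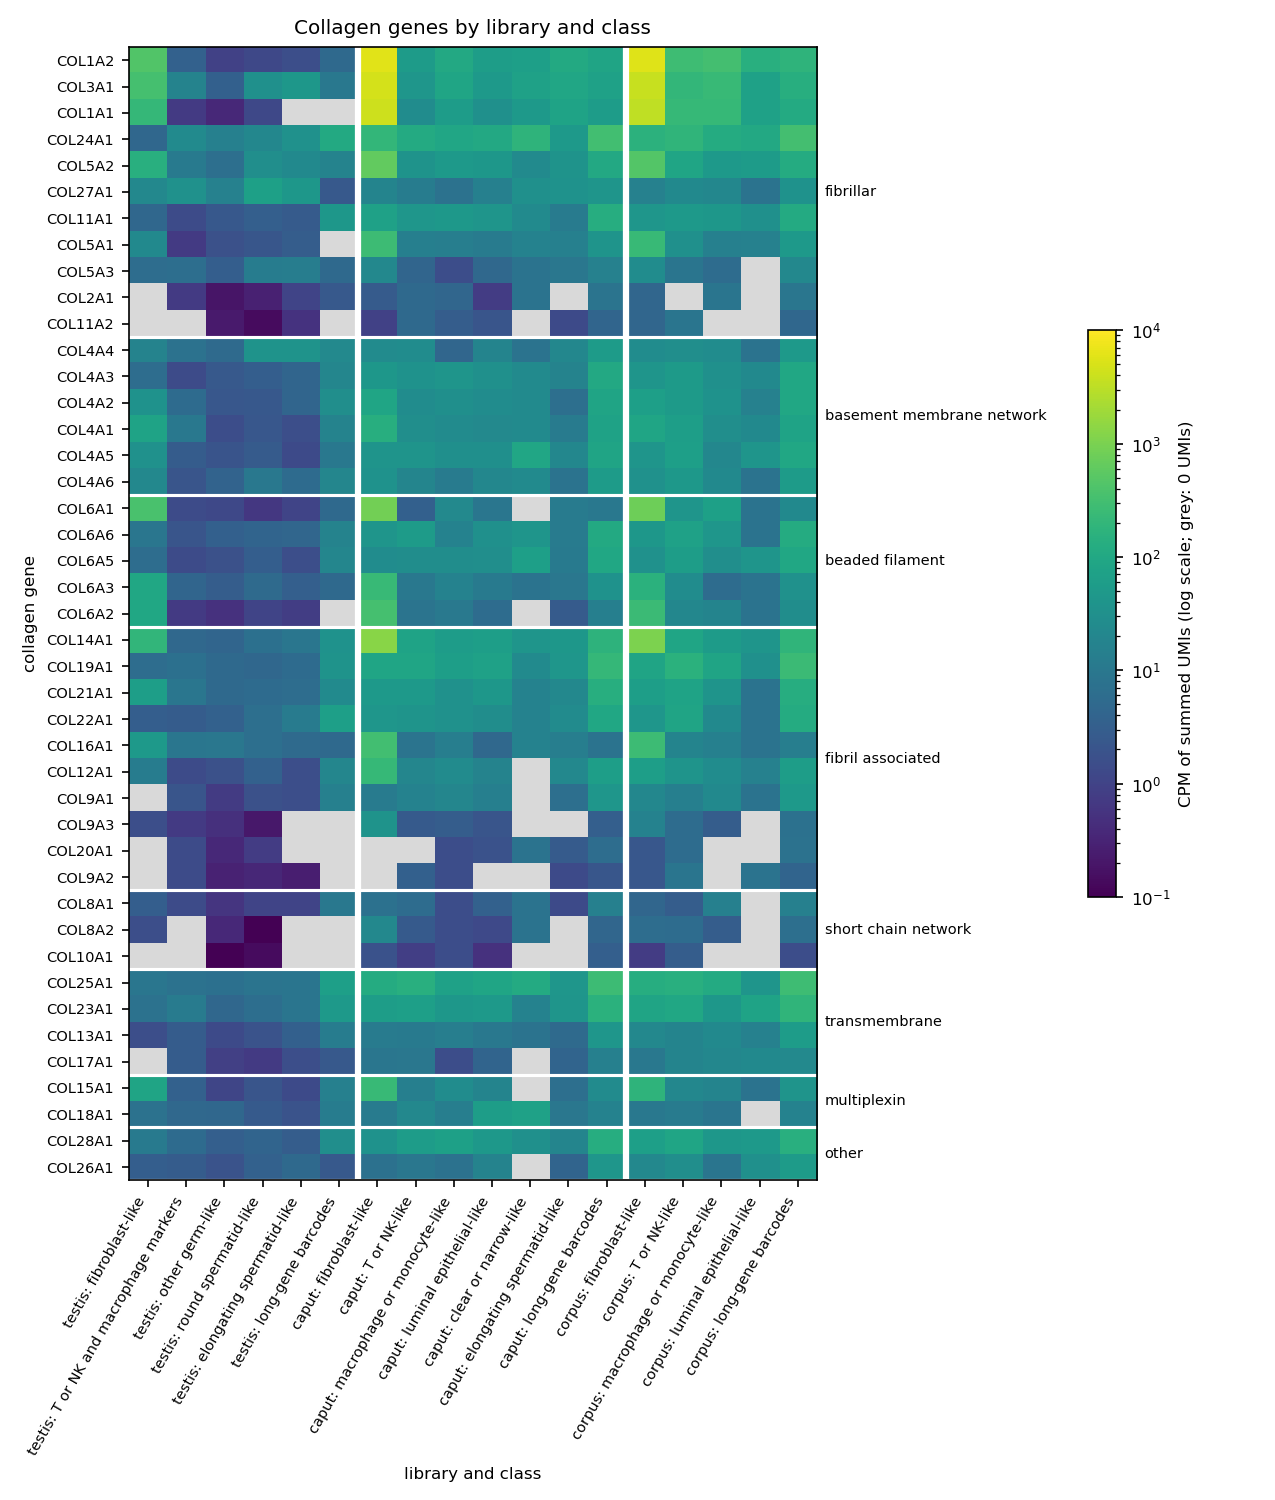
Level of each of the 43 collagen genes (rows, ordered by structural role) in each class of each library (columns), as CPM of summed UMIs on a log colour scale, with grey for 0 UMIs. The fibroblast-like columns of caput and corpus hold the brightest cells (COL1A2 at 6013 and 5791 CPM), and COL27A1 and COL4A4 are brighter in testis spermatid-like columns than in other germ-like cells.

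Fibroblast-like cells carried most of the signal per UMI in every library. Their collagen share was 0.242% in testis (0.230 to 0.254), 2.05% in caput (2.02 to 2.07) and 1.76% in corpus (1.74 to 1.79). In caput the other named classes lay between 0.0885% (elongating spermatid-like) and 0.129% (T or NK-like), with luminal epithelial-like cells at 0.116%. In corpus the T or NK-like cells were at 0.257%, macrophage-like cells at 0.194% and luminal epithelial-like cells at 0.107%. In testis the germ-like cells that were not spermatid-like were at 0.0135%. A further testis cluster of 313 cells, at 0.0225%, carried T or NK markers (713 CPM in sum) and macrophage markers (890 CPM), with CD74 but no T or NK marker among its top 10 genes, so it is given by its markers below and not by a class name. As a share of all collagen UMIs, fibroblast-like cells held 13.7% in testis, 47.7% in caput and 70.6% in corpus, while being 1.84%, 7.56% and 30.3% of the cells. A corpus cluster of 161 cells with both stromal and T-cell markers was at 1.35% and was left unnamed.

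Testis stroma carried markers of other cells, and so did caput stroma, whose luminal markers are given below. Germ markers in testis stroma were present for 45 of 47 listed genes at 6264 CPM in sum, against 822 CPM in caput stroma and 649 CPM in corpus stroma. Clustered again, 75 of the 157 testis cells had the lowest germ marker level of 4 sub-clusters, 3537 CPM, with NANOS3, SALL4, SPO11 and HORMAD1 at 0. Stromal markers were at 11926 CPM there (15 of 18 listed genes). The other 3 sub-clusters had germ markers at 6167 to 11012 CPM and collagen at 0.0794% to 0.171%. The same 75 cells carried 10 of 12 smooth muscle or myoid markers at 2833 CPM, against 551 CPM in caput, with CNN1 and ACTG2 at 0. Macrophage markers were at 1224 CPM there (7 of 16 listed genes, with CSF1R, CD68, CD163 and the C1Q genes at 0), against 254 CPM in caput own-marker stroma and 347 CPM in corpus. The Leydig list was at 0 for all 4 genes. Collagen made up 0.520% of UMIs in these 75 cells (0.489 to 0.552). These 75 cells are called own-marker stroma below. In caput and corpus the rule was another one. It left out sub-clusters led by the markers of another class, unless very long genes made up at least 1% of their UMIs. That rule kept 532 cells in caput (2.25% collagen) and all 2912 in corpus. Luminal epithelial markers were at 5380 CPM in all caput fibroblast-like cells and at 2441 CPM in the 532, against 254 CPM in corpus. A caput sub-cluster of 127 cells, which the rule left out, had them at 17417 CPM. Of the 532, a sub-cluster of 239 cells was kept only by the exception. Its best match was spermatocyte (3 of 12 markers), and its germ markers, at 974 CPM, were the highest of the caput sub-clusters. Both rules were set after the data were seen. In bulk or summed counts, fewer collagen-making cells and less RNA per cell cannot be told apart. The part of the germ, myoid and macrophage transcripts in the testis values was not tested. Neither was that of the luminal transcripts in the caput values.

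COL1A2, COL3A1 and COL1A1 had the most collagen UMIs in the stroma of caput and corpus. In testis stroma COL1A2 had the most (277), followed by COL6A1 (238) and COL3A1 (212). COL1A1, the alpha1 chain of type I, was at 211 CPM in testis (177 to 249), 4115 CPM in caput (3996 to 4238) and 3362 CPM in corpus (3264 to 3462). COL1A2, its partner chain, was at 432, 6013 and 5791 CPM in the same order. COL3A1, the chain of type III, was at 331, 4709 and 3864 CPM. All 3 genes were therefore lowest in testis, and caput lay above corpus by less than 1.5-fold. COL5A2 and COL5A1, chains of the type V that starts fibrils, stood at 142, 628 and 457 CPM and at 23.4, 271 and 237 CPM.

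A gene was counted as higher in one class where the whole interval of the ratio lay beyond 2-fold and the higher class had at least 50 UMIs. In caput 14 of 22 members with enough UMIs were higher in fibroblast-like than in T or NK-like cells, where 8.96% of all genes compared were. Those T or NK-like cells also carried luminal epithelial markers, at 7052 CPM in sum against 5560 CPM for T or NK markers. The largest ratios were 250-fold for COL6A1 (930 against 4 UMIs), 151-fold for COL1A1, 112-fold for COL3A1 and 108-fold for COL1A2. Against macrophage-like cells the count was 13 of 20 members (9.02% of all genes), and against luminal epithelial-like cells 14 of 32 (6.57%). No member was higher in T or NK-like cells (6% of all genes) or in macrophage-like cells (6.57%). In corpus 11 of 25 members were higher in stroma than in T or NK-like cells (6.68% of all genes) and 11 of 25 than in macrophage-like cells (6.73%). None was higher in the T or NK-like cells (2.65%) or the macrophage-like cells (4.72%) of corpus. The corpus ratios were smaller, at 20.5-fold for COL1A2, 19.0-fold for COL6A1, 18.8-fold for COL3A1 and 15.2-fold for COL1A1. In testis 10 of 34 members were higher in stroma than in germ-like cells, where 1.88% of all genes were, and 0 were higher in germ-like cells (0.187%). Those led with COL1A2 at 398-fold (292 to 553), COL6A1 at 365-fold (265 to 514) and COL1A1 at 345-fold (227 to 543).

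Stromal transcripts also appeared in cells that should lack them. The COL1A1 level of T or NK-like cells stood at 0.665% of its stromal level in caput and at 6.56% in corpus, and DCN, a stromal proteoglycan, at 1.06% and 3.29%. The UMI ratio of COL3A1 to COL1A2 was 0.783 in caput stroma (0.755 to 0.812) against 0.754 for caput T or NK-like cells (0.509 to 1.11). In corpus it was 0.667 for stroma against 0.729 for T or NK-like cells (0.528 to 1.003). The ratio of COL5A2 to COL1A2 was not alike. In caput it was 0.104 for stroma (0.0964 to 0.113) against 0.662 for T or NK-like cells (0.439 to 0.987). In corpus it was 0.0790 (0.0726 to 0.0858) against 0.302 (0.192 to 0.462). Where these transcripts came from was not tested. With each cell thinned to 300 UMIs, 430 of 717 caput fibroblast-like cells (59.97%) and 49.5% of those in corpus had a COL1A1 UMI, against 0.236% and 4.68% of T or NK-like cells. Thinning left out 23 corpus fibroblast-like and 18 T or NK-like cells. Without it the shares were 89.5% and 59.3% in stroma at median depths of 1268 and 396 UMIs, and 2.71% and 5.99% in T or NK-like cells at 1192 and 358 UMIs. In testis stroma the thinned share was 7.64% (12 of 157 cells) and the unthinned share 44.6% at a median depth of 3168 UMIs. In its 75 own-marker cells they were 17.3% (13 cells) and 60%. These cells were thinned in a separate random draw, so the thinned counts of the 75 and of the 157 cells are not nested. In the testis cluster with T or NK and macrophage markers, 0 of 313 thinned cells had a COL1A1 UMI, which allows a share of such cells of up to 1.17% at that depth, and unthinned the share was 0.319%.

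Fibril associated collagens came next in the stroma. COL14A1, which sits on mature fibrils, was at 198 CPM in testis (165 to 236), 1275 CPM in caput (1209 to 1344) and 1009 CPM in corpus (956 to 1065). COL16A1, which links fibrils to cells, was at 48.4, 313 and 264 CPM. COL12A1, found along fibrils of tissues under tension, was at 12.48, 227 and 63.8 CPM. In caput these genes exceeded T or NK-like cells by 16.0-fold for COL14A1, 36.6-fold for COL16A1 and 11.6-fold for COL12A1. In corpus COL14A1 (11.4-fold) and COL16A1 (14.9-fold) did, while the COL12A1 ratio was 1.67 (0.925 to 3.26). COL21A1, known from vessel walls, was at 64.0, 50.6 and 63.8 CPM in the 3 stromas. In testis own-marker stroma COL21A1 was at 139.7 CPM (93.6 to 201), against 48.8 CPM in that of caput, from 29 and 38 UMIs, too few to be counted. COL19A1, a rare basement membrane zone collagen, had a caput stroma level of 87.3 CPM against 88.9 CPM in T or NK-like cells. COL9A3, a cartilage type IX chain, had 40 UMIs in caput stroma (36.8 CPM), 22 in corpus and 1 in testis. COL22A1 and COL9A1 were at 42.3 and 12.0 CPM in caput stroma, close to their T or NK-like levels of 39.3 and 16.2 CPM. COL20A1 had 0 UMIs in caput stroma and COL9A2 had 0 as well.

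The beaded filament chains of type VI split in 2 sets. COL6A1 was at 371 CPM in testis stroma (326 to 422), 855 CPM in caput (801 to 912) and 783 CPM in corpus (736 to 832). COL6A2 was at 96.8, 331 and 256 CPM and COL6A3 at 96.8, 231 and 157 CPM. These 3 chains passed the threshold against T or NK-like cells in caput and in corpus and against germ-like cells in testis. The other chains, COL6A5 and COL6A6, were at 26.7 and 41.4 CPM in caput stroma, against 28.2 and 54.7 CPM in T or NK-like cells. In corpus they were at 33.4 and 44.1 CPM in stroma against 61.8 and 73.5 CPM.

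The basement membrane chains showed smaller contrasts. COL4A1, a chain of the ubiquitous type IV trimer, was at 81.1 CPM in testis stroma (60.6 to 106), 138 CPM in caput (117 to 162) and 85.8 CPM in corpus (70.7 to 103). Its partner COL4A2 was at 35.9, 87.3 and 65.3 CPM. In caput both exceeded T or NK-like cells, by 4.75-fold (3.25 to 7.11) and 3.19-fold (2.12 to 4.93). In corpus the COL4A1 ratio was 1.33 (0.835 to 2.20). COL4A3, COL4A5 and COL4A6, chains of more restricted membranes, were at 44.1, 39.5 and 34.9 CPM in caput stroma, from under 50 UMIs each. In testis stroma COL4A5 was at 34.3 CPM, 15.7-fold over germ-like cells from 22 UMIs, too few to be counted.

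COL15A1, a multiplexin of basement membrane zones, was stromal in all 3 tissues at 82.7, 232 and 180 CPM. It exceeded T or NK-like cells 16.0-fold in caput (9.76 to 27.8) and 8.74-fold in corpus (4.18 to 22.0), and germ-like cells 57.2-fold in testis (39.0 to 83.6). Short chain COL8A2, known from the cornea and vessels, had 23 UMIs in caput stroma (21.2 CPM) and 8 in corpus (6.08 CPM). COL8A1 had 8 and 6 UMIs. The transmembrane chains COL25A1 and COL23A1 were no higher in stroma. COL25A1 was at 120 CPM in caput stroma and 144 CPM in T or NK-like cells, and COL23A1 at 61.6 and 65.0 CPM. COL17A1 and COL13A1, the first known from epithelial anchoring, were at 9.19 and 12.0 CPM in caput stroma. COL2A1, COL11A2 and COL10A1, cartilage collagens, had 3, 1 and 2 UMIs there.

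**Figure D2:**
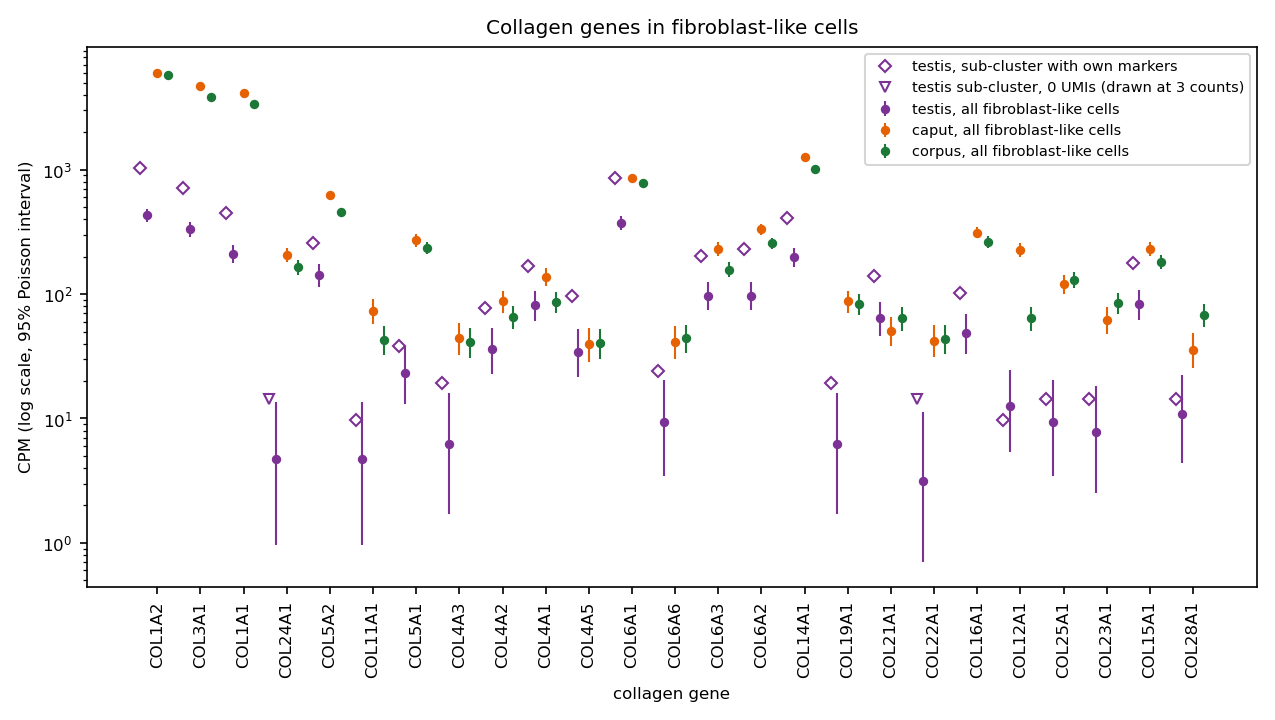
Level in fibroblast-like cells, as CPM on a log scale with 95% Poisson intervals, of the 25 collagen genes with at least 50 UMIs in the stroma of some library (filled points: testis, caput, corpus), and in the testis own-marker sub-cluster (open diamonds, or triangles at the level of 3 counts for 0 UMIs). Caput and corpus points lie close together except for COL12A1 (227 and 63.8 CPM), while testis points are far lower for COL1A1, COL3A1 and COL24A1. For COL21A1 the filled testis point (64.0 CPM) is near the others and its diamond (139.7 CPM) lies above them.

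The question between caput and corpus is whether the stroma of 2 neighbouring segments differs in its collagens. Only COL12A1 passed the threshold, with 247 UMIs in caput and 84 in corpus and a ratio of 3.56 (2.77 to 4.62). That is 1 of 25 members with enough UMIs, where 2.06% of all genes were higher in caput, so the count is no result about collagens as a family. None was higher in corpus, where 0.224% of all genes were. The ratio was 1.22 for COL1A1 (1.17 to 1.28), 1.22 for COL3A1, 1.04 for COL1A2 and 1.09 for COL6A1 (0.998 to 1.19). COL4A1 stood at 1.61 (1.25 to 2.07) and COL28A1, a member outside the main groups, at 0.530 (0.354 to 0.781). The median log2 ratio of the members was 0.25, against 0.01 over all genes compared. When cells with under 500 genes were left out, the COL12A1 ratio was 2.39 (1.61 to 3.67) and no longer passed. On own-marker stroma it was 4.07 (3.14 to 5.31), again 1 of 25 members (1.11% of all genes), and 0 were higher in corpus (0.27%).

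COL12A1 was uneven within the stroma. The own-marker stroma of caput held 3 sub-clusters, of 239, 157 and 136 cells. COL12A1 was at 213 CPM in the first (170 to 263), 93.7 CPM in the second (56.4 to 146) and 555 CPM in the third (451 to 677). Genes leading the third were SFRP4, INHBB, ANGPT1 and DLK1, and COL12A1 was among its top 10 although no collagen gene had been used to form it. Other fibre genes had their highest level in the same 136 cells: COL1A1 at 7382 CPM against 3515 and 3912, COL3A1 at 9179 against 3760 and 4465, COL14A1 at 2300 against 1031 and 1268. COL15A1 had its highest level in the second, at 375 CPM (295 to 469) against 223 and 181 CPM. Very long genes were 1.47% of UMIs in the first sub-cluster, against 0.562% and 0.710%. In corpus, COL12A1 was at 121 CPM (82.0 to 171) in a sub-cluster of 608 cells led by MFAP5 and FN1, and between 39.0 and 65.6 CPM in the other 4. COL1A1 was likewise highest in those 608 cells, at 4932 CPM against 2269 to 3725 CPM. These sub-clusters come from 1 library each and were described after the data were seen.

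Over whole libraries the order of the tissues turned. There 7 of 39 members were higher in corpus than in caput, where 1.51% of all genes were, and 0 were higher in caput, where 5.95% were. They were COL1A2 at 3.65-fold (3.54 to 3.77), COL6A1 at 3.58-fold, COL1A1 at 3.18-fold, COL3A1 at 3.11-fold, COL16A1 at 2.95-fold, COL6A2 at 2.80-fold and COL5A1 at 2.36-fold. Within the stroma the same 7 genes lay between 1.04 and 1.29 times higher in caput. The share of fibroblast-like cells was 30.3% in corpus and 7.56% in caput. COL18A1 was the member with the highest caput to corpus ratio, 2.27 (1.70 to 3.07), and did not pass.

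Testis stroma had lower levels of most members than either epididymal stroma. Caput was higher for 15 of 20 members, where 26.9% of all genes were higher in caput, and testis for 0, where 22.1% were. Corpus was higher for 18 of 25 members (28.7% of all genes) and testis for 0 (21.8%). A call for testis needed 50 of its 640825 stromal UMIs, against 50 of 1087642 in caput or of 1316543 in corpus. Members low in testis could thus enter through the epididymis alone, and the 0 is no result about members with few testis UMIs. The median log2 ratio of testis to caput was -2.77 over the members and -0.71 over all genes compared. COL1A1 was 19.5-fold lower in testis than in caput (16.5 to 23.4), COL3A1 14.2-fold, COL1A2 13.9-fold and COL5A1 11.6-fold. COL14A1 and COL16A1 were 6.43-fold and 6.46-fold lower in testis and COL5A2 4.42-fold lower. COL6A1 was 2.30-fold lower (1.995 to 2.67) and COL4A1 1.70-fold lower, and COL21A1 in caput stood at 0.790 of its testis level, none of which passed. COL24A1, a fibrillar collagen of bone and cornea, had 3 UMIs in testis stroma and 224 in caput, a 44.0-fold difference (14.9 to 215). Its caput stroma level was 1.80 times that of T or NK-like cells (1.45 to 2.24). Very long genes as a group moved the same way, with 26 of 28 listed genes lower in testis stroma than in caput stroma.

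The comparison was repeated on own-marker stroma, with 12 of 19 members higher in caput than in testis (15.7% of all genes) and 7 of 25 higher in corpus, where 744 of 5971 genes (12.5%) were. No member was higher in testis than in caput (7.83% of all genes) or than in corpus (5.31%). A call for testis needed 50 of its 207524 UMIs, against 50 of 778659 in caput or of 1316543 in corpus. Members low in testis could thus enter through caput or corpus alone. COL4A1 (35 testis UMIs), COL21A1 (29) and COL4A5 (20) could not be called for testis. The 0 is therefore no result about members with few testis UMIs. Of the members higher in caput, COL1A1 was 10.03-fold lower in testis than in caput (93 against 3500 UMIs), COL3A1 7.30-fold and COL1A2 6.40-fold. COL12A1 was 26.9-fold lower (7.36 to 224, from 2 against 202 UMIs). COL24A1 had 0 UMIs in the testis cells and was at least 15.7-fold higher in caput, with the floor at 3 counts over the group. Of the beaded filament chains 3 of 5, and of the basement membrane chains 2 of 6, had enough UMIs. Their ratios of testis to caput were nearer to 1, and none passed. Among the chains with too few UMIs, COL4A3 (19.3 against 57.8 CPM), COL6A5 and COL6A6 were lower in testis, with overlapping intervals. COL4A5 was higher there. COL4A4 (33.7 against 30.8 CPM) and COL4A6 (38.5 against 34.7 CPM) were close to level, from 7 and 8 testis UMIs. For type VI the ratio was 0.919 for COL6A1 (0.775 to 1.08), 0.625 for COL6A2 (0.451 to 0.851) and 0.812 for COL6A3 (0.567 to 1.14). It was 1.18 for COL4A1 (0.785 to 1.74), 0.780 for COL4A2 (0.425 to 1.35) and 0.705 for COL15A1 (0.482 to 1.01). COL6A2 had the lowest of these ratios, with an interval below 1, and COL4A5 stood above them at 2.50 (1.35 to 4.55), from 20 and 30 UMIs, too few to be counted. Against corpus, COL4A1 stood at 1.96 (1.30 to 2.89), COL4A5 at 2.39 (1.36 to 4.07) and COL21A1 at 2.19 (1.38 to 3.38), none of them past the threshold. Corpus was 7.50-fold higher for COL1A1, 6.15-fold for COL5A1, 5.62-fold for COL1A2 and 5.45-fold for COL3A1. The 75 testis cells had 1079 collagen UMIs in all, which limits these ratios, and their myoid markers (2833 CPM against 551 CPM in caput) and macrophage markers (1224 against 254 CPM) move with them.

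**Figure D3:**
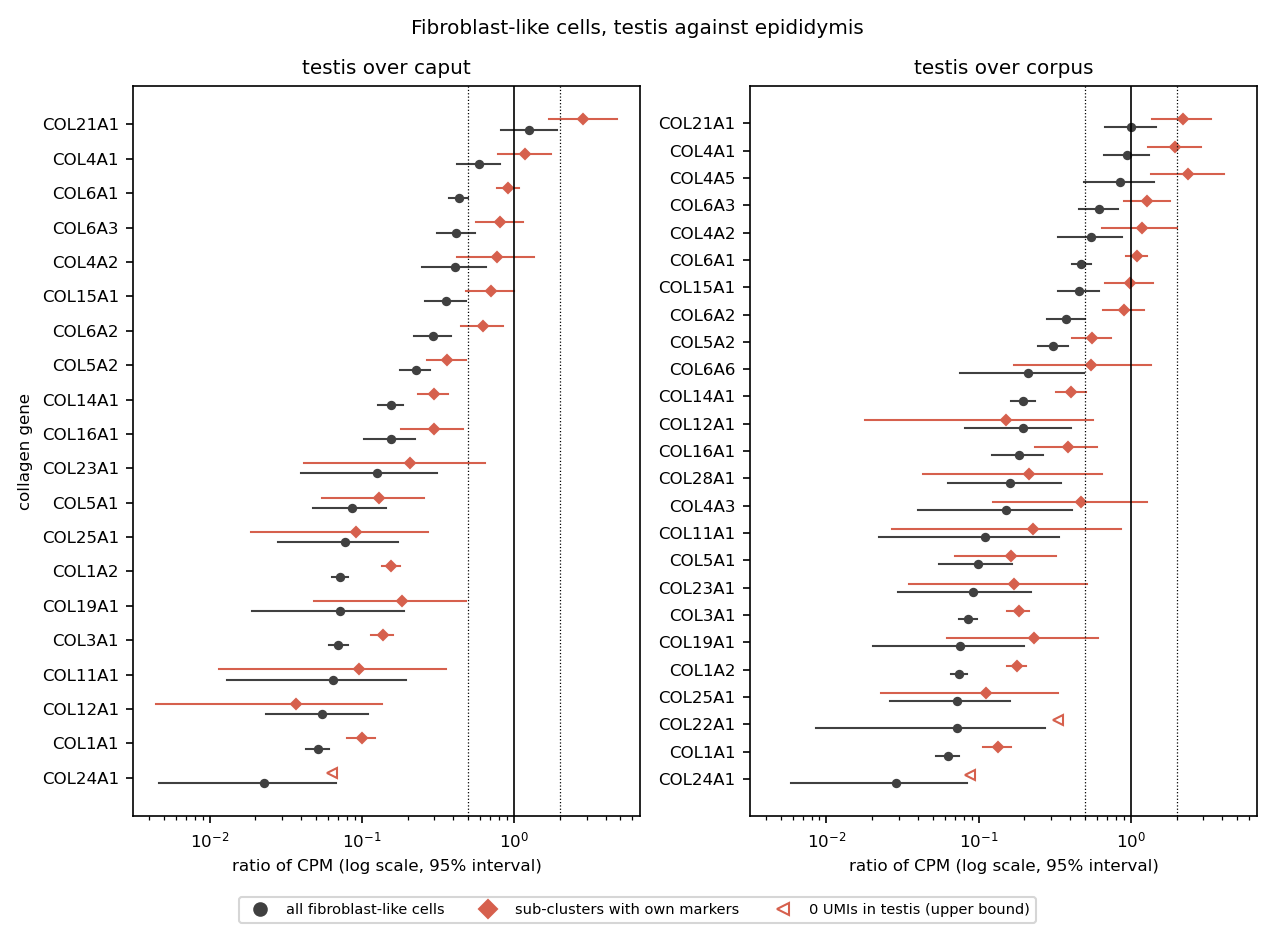
Ratio of testis to caput (left) and of testis to corpus (right) in fibroblast-like cells, for each collagen gene with enough UMIs, on a log scale with 95% intervals, for all fibroblast-like cells (circles) and for own-marker sub-clusters (diamonds, with open triangles as upper bounds where testis had 0 UMIs); a dotted line stands at 2-fold either way. COL1A1 lies far to the left under both definitions (0.0512 and 0.0997 of caput), whereas COL6A1 moves from 0.434 to 0.919 of caput.

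The UMI ratios of chains that assemble together varied between tissues. COL1A2 per COL1A1 was 2.05 in testis stroma (1.66 to 2.54), 1.46 in caput (1.41 to 1.52) and 1.72 in corpus (1.66 to 1.79). COL6A2 per COL6A1 was 0.261, 0.387 and 0.327. COL6A3 per COL6A1 was 0.261 (0.194 to 0.346), 0.270 (0.234 to 0.311) and 0.201 (0.172 to 0.233). COL4A2 per COL4A1 was 0.442 (0.258 to 0.736), 0.633 (0.485 to 0.824) and 0.761 (0.568 to 1.02). For type V the testis stood apart, with COL5A2 per COL5A1 at 6.07 (3.49 to 11.3) against 2.32 in caput (2.02 to 2.66) and 1.93 in corpus (1.68 to 2.22). The testis value came from 91 and 15 UMIs, and on own-marker stroma it was 6.63 (3.13 to 16.1), from 53 and 8 UMIs. Spermatid-like cells held 500 COL5A2 UMIs, and the part of germ transcripts in the stromal ratio was not tested. UMI ratios between genes also depend on transcript length and capture, so only the change between tissues is read from them. In the RefSeq table COL3A1 and COL5A2 are neighbouring genes, as are COL4A1 and COL4A2, COL6A1 and COL6A2, COL6A5 and COL6A6, COL9A1 and COL19A1, and COL4A5 and COL4A6.

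Germ-like cells carried a set of collagen transcripts unlike that of the stroma. In spermatid-like cells of testis (3227 cells, round and elongating together) the leading members were COL27A1 with 1141 UMIs, COL4A4 with 646, COL3A1 with 620 and COL5A2 with 500. COL1A1 and COL1A2 had 17 and 23 UMIs in the same 17705941 UMIs. As CPM, COL27A1 was at 64.4 CPM in spermatid-like and 15.8 CPM in other germ-like cells, a ratio of 4.08 (3.65 to 4.58). COL3A1 was at 35.0 and 3.43 CPM, a ratio of 10.2 (8.18 to 12.9), and COL4A4, a chain of the kidney glomerular membrane, at 36.5 and 5.39 CPM, a ratio of 6.77 (5.64 to 8.17). COL5A2 had a ratio of 4.23 (3.56 to 5.05) and COL5A3, the rarer type V chain, 3.94 (3.05 to 5.13). These 5 of 25 members are a share close to the 27.5% of all genes that were higher in spermatid-like cells, so the count is no result about collagens as a family. No member was higher in other germ-like cells, where 9.17% of all genes were. COL18A1 stood at 0.516 (0.356 to 0.735) and COL16A1 at 0.662 (0.527 to 0.829).

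By cluster, COL27A1 was at 55.5 to 74.1 CPM in the 3 round spermatid-like clusters and at 49.5 and 19.4 CPM in the 2 elongating spermatid-like clusters. In the 7 other germ-like clusters it ranged from 1.88 to 43.4 CPM, with the 3 highest values (19.9, 33.5 and 43.4 CPM) in the 3 clusters with most round spermatid marker signal. COL3A1 was at 24.9 to 37.2 CPM in round and 54.9 CPM in the larger elongating spermatid-like cluster, and at 7.72 CPM or less in other germ-like clusters. In the smaller elongating cluster COL3A1 had 3 UMIs. COL4A4 was at 26.5 to 45.9 CPM in round, 41.9 and 19.4 CPM in elongating and 1.61 to 14.0 CPM in other germ-like clusters. The testis cluster with T or NK and macrophage markers, which also carried germ markers at 7829 CPM, had COL27A1 at 34.6 CPM, COL3A1 at 16.9 CPM and COL4A4 at 7.77 CPM. Testis stroma had COL27A1 at 21.9 CPM, and after own-marker selection 2 UMIs (9.64 CPM).

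**Figure D4:**
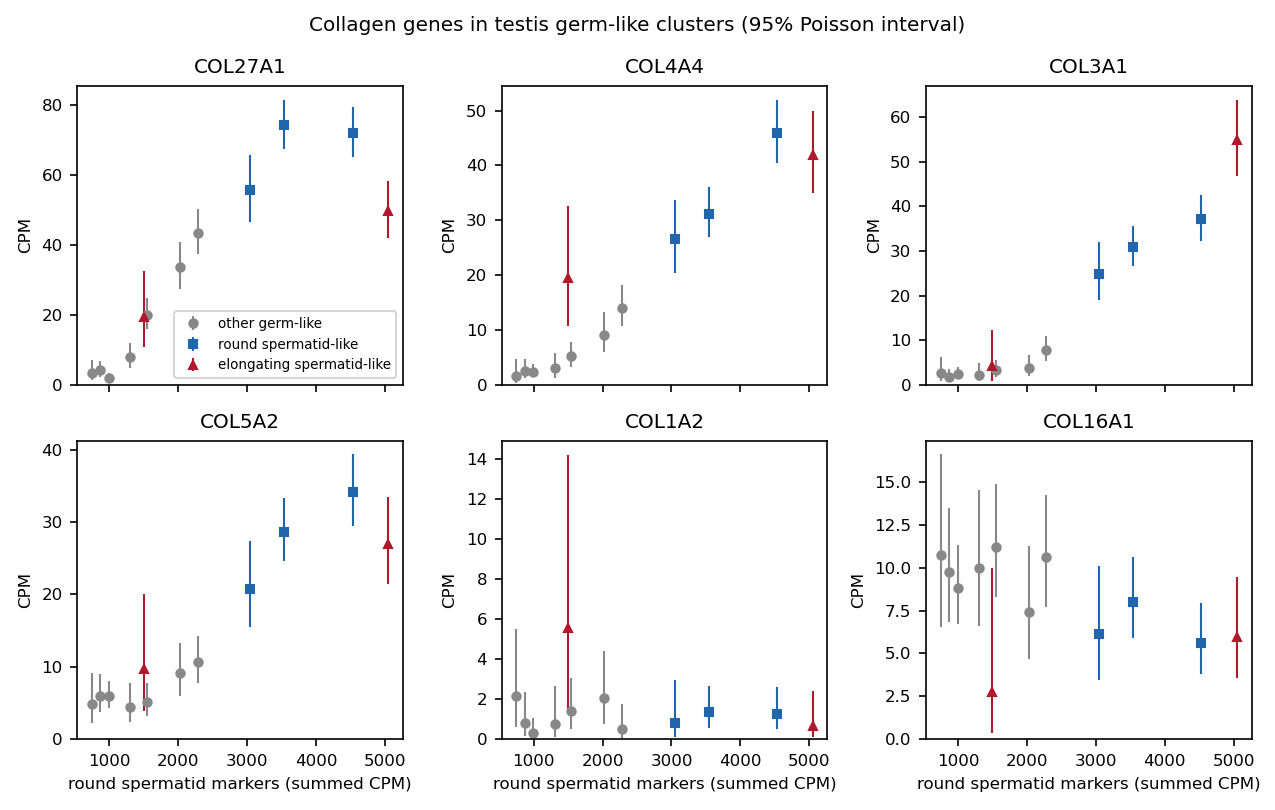
Level of 6 collagen genes (CPM with 95% Poisson intervals, linear axes) in each germ-like cluster of testis, against the summed CPM of round spermatid markers in that cluster; squares are round, triangles elongating and circles other germ-like clusters. COL27A1, COL4A4, COL3A1 and COL5A2 are higher in clusters with more spermatid marker signal (COL27A1 from 1.88 to 74.1 CPM), and COL1A2 and COL16A1 are not.

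The ratio of COL3A1 to COL1A2 separated these cells from the stroma. It was 27.0 in spermatid-like cells (17.8 to 42.8), 3.64 in other germ-like cells (2.32 to 5.92) and 0.765 in testis stroma (0.637 to 0.919). Fibroblast markers in sum were at 61.4 CPM in spermatid-like cells, 34.9 CPM in other germ-like cells and 5328 CPM in testis stroma. DCN in round and elongating spermatid-like cells was at 0.269% and 0.681% of its stromal level, against 9.77% and 13.6% for COL3A1. In caput, 229 elongating spermatid-like cells had a COL3A1 to COL1A2 ratio of 0.805 (0.573 to 1.13), with COL1A1 at 78.5 CPM. COL27A1 in those cells had 26 UMIs (35.2 CPM), against 18.4 CPM in caput stroma and 12.8 CPM in T or NK-like cells. Thinned to 300 UMIs, 2.08% of round spermatid-like cells had a COL27A1 UMI, against 0.535% of other germ-like cells and 1.60% of the cluster with T or NK and macrophage markers, so most single cells gave none at that depth. Unthinned shares were 29.0%, 7.88% and 12.8% at median depths of 4626.5, 4926 and 3845 UMIs. COL4A3 and COL4A4 overlap in the RefSeq table and the strand used in counting is not given, so reads from these genes may not be separable. COL4A3 itself was at 3.39 CPM in spermatid-like cells.

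COL18A1, the multiplexin whose end fragment is endostatin, was the 1 member with its highest caput level in luminal epithelial-like cells, among classes with at least 10 UMIs of the gene. It had 237 UMIs there (60.4 CPM) and 13 in stroma (12.0 CPM), 5.05-fold lower in stroma (2.90 to 9.62). It was the 1 member of 32 higher in luminal cells, where 4.23% of all genes were, so the count is no result about collagens as a family. The 4 luminal epithelial-like clusters had 77.3, 70.4, 63.7 and 33.8 CPM, and the interval of the lowest (23.8 to 46.6) lay below those of the other 3. Clear or narrow-like cells had 9 UMIs (73.2 CPM, 33.5 to 139). T or NK-like cells had 21.4 CPM, macrophage-like cells 13.5 CPM, and the ratio of luminal to T or NK-like cells was 2.82 (1.87 to 4.45), not past the threshold. Luminal markers themselves were at 35085.5 CPM in luminal and 7052 CPM in T or NK-like cells. Between these classes 0 of 27 members were higher in luminal cells (3.58% of all genes) and 0 in T or NK-like cells (5.33%). In corpus the 157 luminal epithelial-like cells had 0 UMIs of COL18A1 in 125040 UMIs, and caput was at least 2.52-fold higher with the floor at 3 counts. That was 1 of 27 members, where 1.03% of all genes were higher in caput luminal cells, and 0 members were higher in corpus (0.642%). With Leiden resolution 2.0, with a minimum of 500 genes per cell or with the deeper side thinned, 0 members passed.

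Barcodes led by very long genes held a further set of members. Collagen made up 0.306% of their UMIs in caput and 0.355% in corpus, and very long genes 2.31% and 2.37%. In caput 24 of 43 members had their highest level in this class and 17 in stroma, with COL18A1 highest in luminal and COL4A5 in clear or narrow-like cells (11 UMIs, 89.4 CPM). Those 24 are 55.8% of the members, and 53.2% of all genes with a class of at least 10 UMIs had their highest level there, so the count is no result about collagens. In stroma it was 39.5% of the members and 7.56% of all genes. In corpus 25 members were highest in this class and 15 in stroma, and 3 had no class with 10 UMIs. That is 62.5% of the 40 members with such a class against 61.4% of all genes for the barcodes, and 37.5% against 17.5% for stroma. Against caput stroma, 7 of 36 members were higher in these barcodes, where 8.6% of all genes were, and 12 were lower, where 8.59% were. The 7 were COL26A1 at 5.87-fold, COL28A1 at 3.64-fold, COL6A5 at 3.61-fold, COL9A1 at 3.53-fold, COL13A1 at 3.52-fold, COL21A1 at 2.73-fold and COL19A1 at 2.48-fold. Against corpus stroma, 5 of 32 were higher (4.74% of all genes) and 11 lower (15.5%), and against corpus T or NK-like cells 0 of 30 were higher (0.347%) and 0 lower (4.03%). Against caput T or NK-like cells 10 of 35 were higher (9.05%) and 0 lower (8.35%). COL24A1 had 1702 UMIs in these caput barcodes and COL25A1, a transmembrane collagen of neurons, had 1487, more than COL1A1 with 313. COL1A1 there was 72.2-fold below caput stroma. Whether counts within introns were included is not given, and the part of gene length in these values was not tested.

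**Figure D5:**
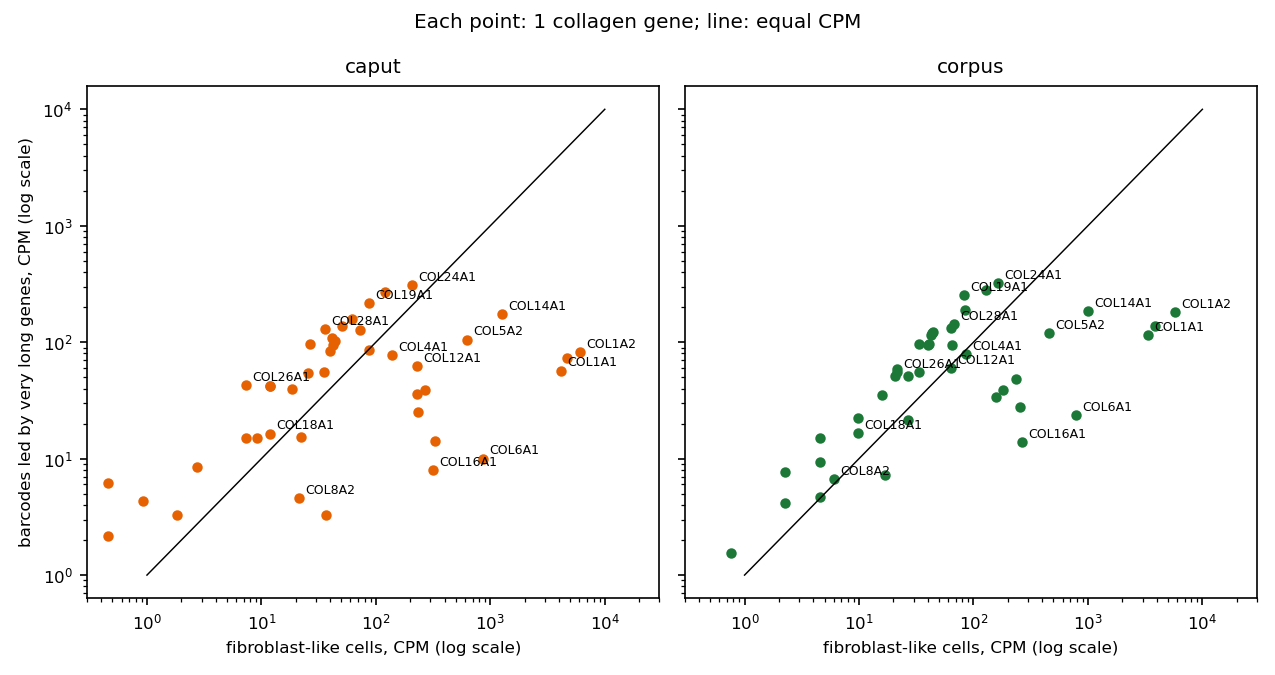
Each point is 1 collagen gene, with its CPM in fibroblast-like cells on the x axis and in barcodes led by very long genes on the y axis (log scales, a gene with 0 UMIs drawn at the level of 0.5 UMI), for caput and corpus. Genes far to the right of the line of equal CPM are COL1A1, COL1A2, COL6A1, COL14A1 and COL16A1, and genes above it include COL24A1, COL19A1, COL28A1 and COL26A1.

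The genes that modify, cut, crosslink and bind collagens were read from lists made with these data known, and the marker genes DCN, LUM, DPT and LAMA2 had also named the stroma. In caput 40 of the 62 list genes with enough UMIs were higher in stroma than in T or NK-like cells (64.5%, against 8.96% of all genes). Without the 6 list genes that are also cell type markers it was 36 of 58. For chain modification and folding it was 5 of 10, with SERPINH1, the collagen chaperone, at 41.3-fold (192 against 5 UMIs) and PLOD2, a lysyl hydroxylase, at 7.58-fold. P3H4, a member of a lysyl modification complex, had 60 UMIs against 0, at least 21.5-fold. For secretion it was 0 of 4. Propeptide removal had 4 of 6, with PCOLCE, the enhancer of C-propeptide cleavage, at 99.4-fold and ADAMTS2, the N-proteinase, at 6.06-fold. LOX, which crosslinks fibrils, was the only crosslinking gene with enough UMIs, at 251 against 9 UMIs (15.6 to 66.4 times). Fibril regulators had 10 of 10, with DCN at 94.0-fold and SPARC at 85.7-fold. Basement membrane partners had 8 of 9, with the laminin chain LAMB2 at 88.0-fold. For receptors it was 3 of 6, with the collagen uptake receptor MRC2 at 24.6-fold and DDR2 at 3.64-fold. Degradation had 5 of 7, with TIMP3 at 74.9-fold, the gelatinase MMP2 at 16.0-fold and CTSK at 9.23-fold. TGF-beta and its regulators had 4 of 9. In corpus the count was 30 of 61 (49.2%, against 6.68% of all genes) and 27 of 57 without the marker genes, with PCOLCE at 30.8-fold, LOX at 8.03-fold and SERPINH1 at 6.75-fold.

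Between caput and corpus stroma the lists were close to level, and DCN was the only gene to pass, 2.36-fold higher in corpus (51559 against 18079 UMIs), which is 1 of 64 list genes (0.224% of all genes). DCN is one of the markers that named the stroma. Of the UMIs of those markers it gave 51559 of 69270 in corpus stroma and 18079 of 31479 in caput stroma. Between testis and caput stroma 32 of 61 list genes were lower in testis (52.5%, against 26.9% of all genes) and 2 higher (3.28% against 22.1%). LOX was 21.1-fold lower in testis (7 against 251 UMIs), PCOLCE 18.1-fold and DCN 7.82-fold, beside COL1A1 at 19.5-fold. The genes higher in testis were TMEM38B, an endoplasmic reticulum channel, at 3.98-fold (2.40 to 6.80) and CCN2, a matricellular growth factor, at 2.64-fold (2.13 to 3.30). On own-marker stroma 11 of 49 were lower in testis (22.4%, against 15.7% of all genes), or 9 of 45 without the marker genes, a share near the background. There 2 were higher (7.83% of all genes), CCN2 at 5.83-fold and LAMB1 at 2.53-fold, with LOX at 0.0747 and PCOLCE at 0.0744 of the caput level.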

How the data were processed

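Droplet single-cell RNA libraries of testis, caput and corpus (1 each) were used as the authors deposited them, as raw UMI counts per gene and barcode, that PISA 0.12 had written per the file headers. Cell Ranger 2.1.1 appears, without a role, in the submitters' processing notes. For the aligner, genome build, strand setting and intronic reads, nothing is stated (not given in the sources used here). Barcodes with under 200 genes and called doublets (simulated doublets, 2 per cell) were left out, keeping 46700058, 13203203 and 4140127 UMIs in testis, caput and corpus.

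Each library was scaled to 10000 counts per cell and clustered without collagen genes (2000 variable genes, 30 components, 15 neighbours, Leiden resolution 1). A cluster took a class name from at least 3 markers that were 2-fold higher than elsewhere and made up 20% of a list. Counts were summed per class. Intervals (95%) are exact Poisson, Clopper-Pearson or conditional binomial, for counting error alone. Calls needed an interval beyond 2-fold and 50 UMIs or more in the higher class, and 0 UMIs were bounded with 3 counts. Own-marker stroma kept, in testis, sub-clusters with germ markers at most 1.5 times the lowest sub-cluster. In the epididymis it left out sub-clusters led by another class's markers unless very long genes made up at least 1% of UMIs.

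The members and gene lists were chosen with earlier results of these data known. Genes were named where they had the most UMIs of a role group, peaked outside the stroma, or were called. Of the members, 41 of 43 matched symbols in the RefSeq table of the donkey, used for names and neighbours. No sequence is printed. Calls were run on simulated counts that held counting error alone, which cannot test variation between libraries, cells or clusters. Tools were leidenalg 0.10.2, igraph 0.11.9, scikit-image 0.26.0 and scikit-learn 1.9.0 for clustering, and scipy 1.17.1, matplotlib 3.10.9, pandas 2.3.3 and numpy 2.4.6 under Python 3.11.15. Barcode names are generic, so barcodes shared between libraries could not be counted.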

Additional observations from a re-analysis of the deposited data

How the results depend on the processing

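No paired analysis was possible because each tissue is 1 library and no replicate numbers exist. Among the single genes recomputed, none that passed the threshold passed it in the other direction. Genes that had not passed could change order. In all fibroblast-like cells COL4A1 was at 81.1 CPM in testis and 138 CPM in caput. On own-marker stroma it was at 169 CPM (117 to 235) in testis and 143 CPM (117 to 172) in caput. Of 360 recomputed comparison values, 311 stayed within their limits (the interval of a share, or a set fold of a count) and 49 moved. Of 392 for single genes 368 kept their side of the threshold, 12 gained it and 12 lost it. Some of these could not move, so the tallies do not measure stability. A lower count minimum cannot undo a call, and own-marker stroma kept all fibroblast-like cells of corpus. The cause of the moves was not tested where no construction shows it. The collagen share of stroma moved to 0.2719% in testis, 2.171% in caput and 1.804% in corpus without the 5% highest doublet scores. On own-marker stroma, chosen after seeing the data, it was 0.5199% in testis and 2.249% in caput. It was 2.017% in caput with collagens among the variable genes, and in corpus 1.882% at 500 genes per cell and 2.047% without clusters rich in very long genes. Caput against corpus stroma (1 member) gave 0 at 500 genes, 0 at 4-fold and 13 at 1-fold, with 2 higher in corpus at 1-fold. Whole libraries (7 higher in corpus) gave 0 at 4-fold, 29 at 1-fold and 11 without long-gene clusters, with 1 higher in caput at 1-fold and 1 without long-gene clusters. Testis against corpus stroma (18) gave 7 at 500 genes, 9 at 4-fold, 9 when thinned and 7 on own-marker stroma. Testis stroma against germ-like cells (10) gave 16 with no count minimum and 6 on own-marker stroma. Members higher in luminal cells than stroma (1) numbered 0 at 4-fold and 2 at 1-fold, spermatids (5) 2 at 4-fold and 14 at 1-fold, and caput luminal cells against corpus (1) 0 at resolution 2.0, 500 genes, 4-fold and thinned depth. For the processing and turnover lists, caput against corpus gave 18 higher in caput at 1-fold, and 0 higher in corpus at 4-fold and 11 at 1-fold. Testis against caput gave 1 higher in testis without the 5% highest doublet scores and 0 at 4-fold, under median-of-ratios scaling and when thinned. The lower genes there (32) numbered 10 at 4-fold, 50 at 1-fold, 21 under trimmed mean scaling and 11 on own-marker stroma. Lower in stroma than in T or NK-like cells were, in caput, 1 at a minimum of 10 UMIs, 1 with no minimum and 3 at 1-fold, and in corpus 1, 1 and 1. Higher in corpus stroma were 17 at 4-fold. Other scalings shifted all log2 ratios of testis to caput stroma by -0.48 (median of ratios) or 0.49 (trimmed mean). Under median of ratios COL6A1 also passed there, at 0.312 of caput. Corpus stroma against T or NK-like cells at 500 genes was not run, since a class fell under 50 cells.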

Other observations

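COL7A1, the anchoring fibril collagen, is the RefSeq symbol of a locus that these files list under a locus number. That locus had 148 UMIs in testis, 353 in caput and 182 in corpus.

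At Leiden resolution 2.0 a corpus cluster of 54 cells carried 8 of 14 endothelial markers. Collagen made up 0.247% of its 23528 UMIs (0.187 to 0.319, from 58 UMIs), against 1.76% in fibroblast-like cells. In caput, a stromal sub-cluster of 31 cells with both endothelial and macrophage markers was at 0.925% (0.849 to 1.01), the lowest of the 6 caput sub-clusters. COL1A1 there was at 1895 CPM (1559 to 2282) and COL15A1 had 4 UMIs.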
